A study of Mus musculus with 7 samples.

Results

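The integrin and laminin subunits of C2C12 myotubes exposed to muscle exosomes were examined on 1-colour Agilent mouse arrays. C2C12 is an established mouse myoblast line whose cells can fuse into myotubes. The paper describes the recipients as myotubes, and the deposited labels give their cell type as myoblast. Their cell line field reads C2C12 for the first sample and counts on to C2C18 for the last, while the source names give C2C12 throughout, and C2C12 is used here. Exosomes were added for 24 h without serum, and 0.1 µg of RNA per culture was labelled. EXO-Post Palm stands for exosomes of other C2C12 cultures that had been treated with 0.5 mmol/l palmitate, and EXO-Post BSA for exosomes of cultures treated with the albumin carrier alone. Exosomes were collected 9 h after palmitate removal, and palmitate was not added as such to the recipient cultures. The paper found more palmitate in exosomes of palmitate-treated cells and proposes that EXO-Post Palm could pass it to other muscle cells. The control group, EXO-Post BSA, had 4 arrays and EXO-Post Palm had 3, which the labels call biological replicates. Replicate numbers are those of the sample descriptions and differ from the numbers in the sample titles. Members were all probes whose gene name on the array begins as an integrin alpha or beta chain or is a laminin alpha, beta or gamma chain. The rule took 55 of 39429 probes, for 41 genes. Of these, 38 probes for 32 genes were well above background on at least 3 arrays of 1 group and were tested.

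Integrins are receptors made of an alpha and a beta chain that span the membrane, bind the extracellular matrix or other cells and connect them to the actin cytoskeleton. Laminins are trimers of an alpha, a beta and a gamma chain, and they form the basement membrane that surrounds each muscle fibre. In skeletal muscle, alpha7beta1 integrin and the dystroglycan complex both bind laminin, and loss of the laminin alpha2 chain causes a congenital muscular dystrophy.

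The start of each probe is shown for the genes on which the results turn, because 2 of these genes carried probes that differed from each other. Bases are the first 30 of 60, 5′ to 3′, as the array files give them, and capitals mark an unbroken run of CA pairs. Positions are those of the array files on mm9. Whether a probe lies in coding sequence or in a UTR was not analysed here.
Itgam A_55_P1977926, chr7:135212140-135212199, plus strand: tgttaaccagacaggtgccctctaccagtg
Itgam A_55_P1977929, chr7:135260275-135260334, plus strand: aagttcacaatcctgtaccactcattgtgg
Itgam A_55_P1977934, chr7:135261755-135261814, plus strand: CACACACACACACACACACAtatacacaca
Lama2 A_55_P2064328, chr10:26701254-26701313, minus strand: cccgactacctaataaagatagttcaatcc
Lama2 A_55_P2158946, chr10:26701380-26701439, minus strand: cctgaccaccaacattaggttccgaggctg
Itga7 A_55_P2040011, chr10:128395274-128395333, plus strand: ctctggccttactgtgctgtaccagtccag
Itgb7 A_51_P359603, chr15:102046450-102046509, minus strand: atttttcagagtgaccttcagagggcagca
Lama4 A_51_P212420, chr10:38825794-38825853, plus strand: ttggatgtagactcagaagtgaaccatgta
The third Itgam probe starts with 20 bases of CA pairs. The longest such run in any other member probe was 8 bases.

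Values are log2 of the processed intensity minus the 75th percentile of the array, so that 0 is the 75th percentile. Differences are EXO-Post Palm minus EXO-Post BSA on this scale, with the SE of limma. Probes well above background numbered 19125 to 27720 per array. Slide 1 carried replicates 1 and 2 of EXO-Post BSA beside replicate 1 of EXO-Post Palm, slide 3 carried replicate 4 of the former beside replicate 3 of the latter, and the other arrays stood alone on a slide. All 16 muscle markers, among them Myog, Acta1 and Myh3, were well above background on all 7 arrays, as were 7 of 8 myoblast markers. The summed level of 15 muscle markers, in multiples of the 75th percentile, was 1142 to 1312 with EXO-Post BSA and 858 to 1084 with EXO-Post Palm, so that the groups did not overlap. A sum of linear levels is carried mostly by the brightest probes, and it was not taken from the median pixel. The median log2 difference of the 16 markers was -0.21. Single markers ranged from -0.89 for Chrna1 to 0.50 for Des, with Myog at -0.07 and Acta1 at -0.08. Fewer cells of a type and less RNA per cell cannot be told apart in such samples. The part of the lower sum in the differences below was not tested.

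No integrin or laminin probe passed an adjusted p of 0.05 in limma, where 0.533% of all 21589 tested probes did. The lowest adjusted p among them was 0.111. The paper names limma for its arrays and Student's t-test in its general statistics section. That t-test, adjusted in the same way, also gave 0, with 10 member probes at an unadjusted p under 0.05 against 9 in limma. At an unadjusted p under 0.05, 7 of 38 probes were lower with EXO-Post Palm, beside 5.19% of all tested probes, and 2 were higher, beside 4.85%. The groups did not overlap for 6 probes that were lower, beside 5.87% of all tested probes, and for 3 that were higher, beside 5.4%. The difference was below 0 for 23 of the 38 probes, 60.5% of them, against 52.7% of all tested probes. Its median was -0.23 over the members and -0.02 over all tested probes. Without the third Itgam probe, a choice made after its sequence was seen, 6 probes were lower and 2 higher at an unadjusted p under 0.05, and the median was -0.17. The probes of a gene, and the chains of a receptor, are not independent measurements.

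**Figure D1:**
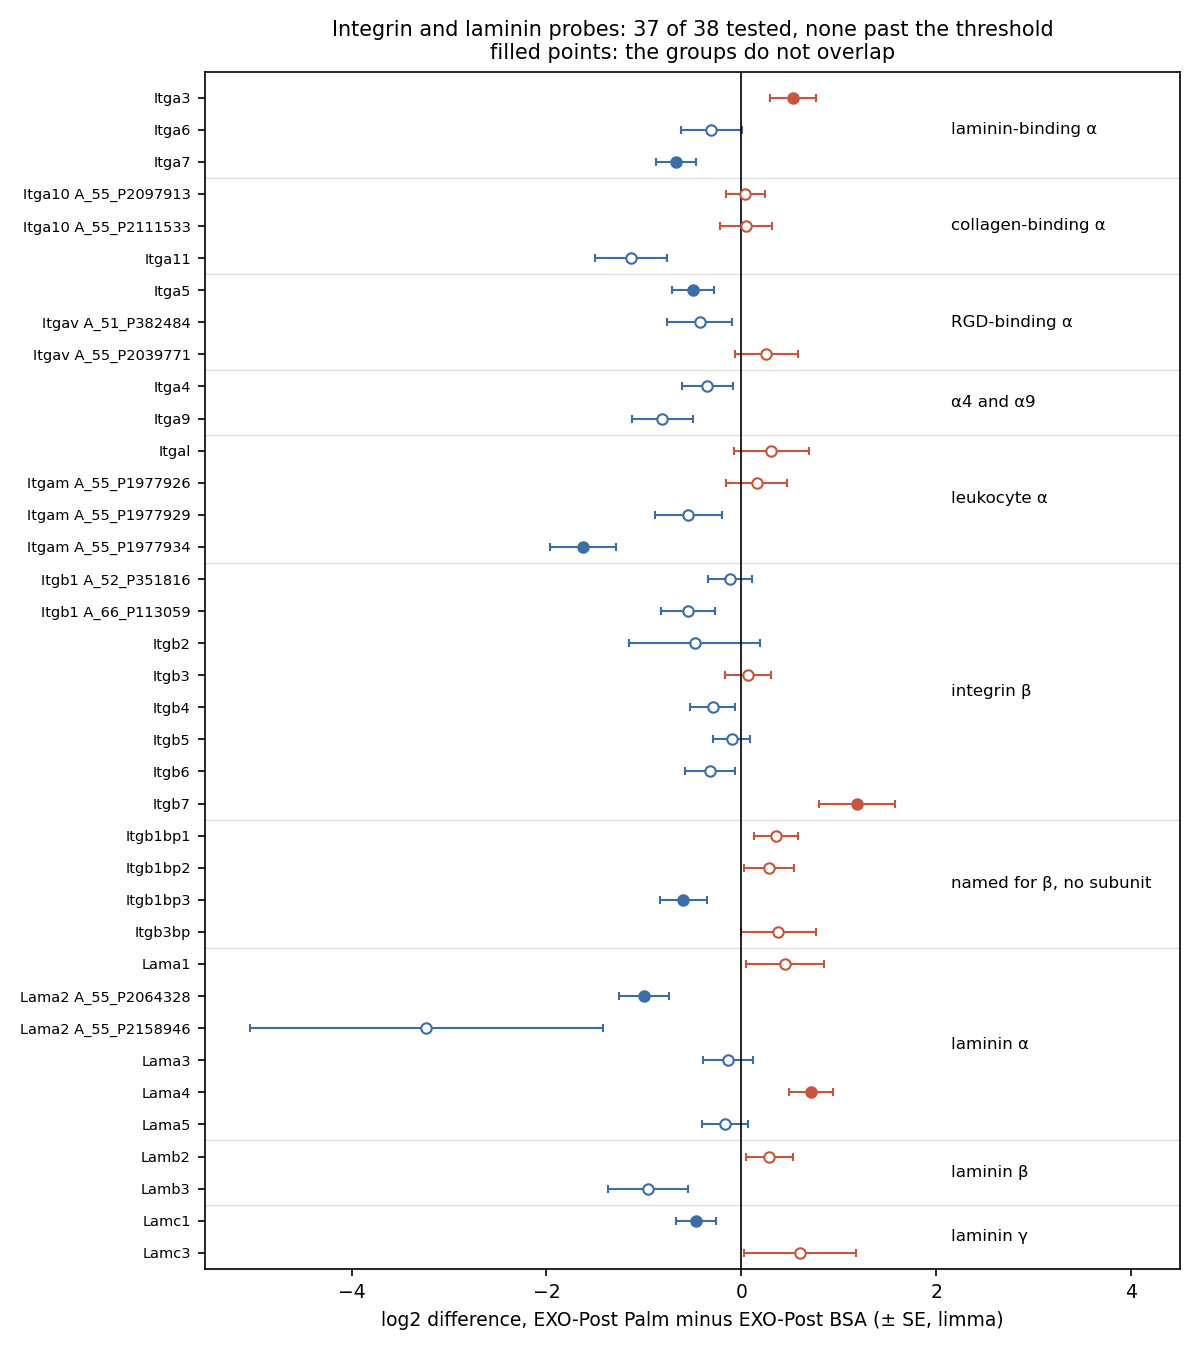
Difference in log2 intensity between EXO-Post Palm and EXO-Post BSA for 37 of the 38 tested integrin and laminin probes, with the SE of limma, grouped by the role of the chain. Filled points mark the 9 probes whose groups do not overlap, 6 below 0 and 3 above, and the widest bar is that of the second Lama2 probe.

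Among the alpha chains that pair into laminin receptors, Itga7 and Itga3 differed in opposite directions, and neither passed the adjusted threshold. Itga7 encodes the main laminin-binding alpha chain of muscle fibres. Its values were 7.70, 7.60, 7.60 and 7.74 with EXO-Post BSA, replicates 1 to 4, and 6.71, 7.05 and 7.21 with EXO-Post Palm, replicates 1 to 3. Values below keep this order. All EXO-Post Palm arrays lay below all EXO-Post BSA arrays, which lay close together. The difference was -0.67 ± 0.20, with a limma adjusted p of 0.295 and an exact permutation p of 0.0286, the smallest that 4 against 3 arrays allow. It was -0.94 within slide 1 and -0.52 within slide 3. It was -0.19 (limma adjusted p = 0.794) from the median pixel with normexp background and quantile normalisation, -0.19 from the authors' processed values and -0.53 from the processed signal with quantile normalisation, and the cause of these changes was not tested. The processed signal of the Itga7 spot was 1.24, 1.52, 1.26 and 1.30 times its median pixel intensity on the EXO-Post BSA arrays and 0.988, 0.906 and 1.19 times on the EXO-Post Palm arrays. No Itga7 spot was saturated. Itga3, whose chain binds laminins of epithelial basement membranes, had values of -2.16, -1.58, -1.59 and -2.03 with EXO-Post BSA and -1.42, -1.06 and -1.45 with EXO-Post Palm. Every EXO-Post Palm array was above every EXO-Post BSA array, with a difference of 0.53 ± 0.23. The limma adjusted p was 0.504 and the exact permutation p 0.0857. The difference of Itga6, another laminin-binding chain, was -0.31 ± 0.31 with overlapping groups.

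The collagen-binding chains were represented by Itga11 and Itga10, since no probe of Itga1 or Itga2 was well above background on 3 arrays of a group. Itga11 encodes the alpha chain of a receptor for fibrillar collagen. Its values were 2.94, 2.58, 3.33 and 3.04 with EXO-Post BSA and 1.60, 2.73 and 1.19 with EXO-Post Palm. EXO-Post Palm replicates 1 and 3 lay below all EXO-Post BSA arrays, and replicate 2 lay among them. The difference was -1.13 ± 0.37, with a limma adjusted p of 0.345, and it was -1.16 within slide 1 and -1.85 within slide 3. The differences of the 2 Itga10 probes were 0.04 ± 0.20 and 0.05 ± 0.27. Their target positions overlap almost entirely, and their sign turned with the scaling, since median centring gave -0.02 and -0.01.

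Of the chains that recognise the RGD motif, Itga5 and Itgav were tested, while Itga8 and Itga2b were not well above background on enough arrays. Itga5 encodes the alpha chain of the fibronectin receptor alpha5beta1. Its values were -0.82, -0.32, -0.68 and -0.28 with EXO-Post BSA and -0.91, -0.98 and -1.17 with EXO-Post Palm. The groups did not overlap, but EXO-Post BSA replicate 1 and EXO-Post Palm replicate 1, on the same slide, lay side by side. The difference was -0.50 ± 0.22 (limma adjusted p = 0.502, exact permutation p = 0.0571). The brighter probe of Itgav, whose chain binds vitronectin with several beta chains, had values of -0.31, 0.63, 0.43 and 1.01 with EXO-Post BSA and 0.19, 0.26 and -0.40 with EXO-Post Palm. These groups overlapped, and the 2 Itgav probes gave -0.43 ± 0.33 and 0.26 ± 0.32. Itga4 and Itga9, whose chains bind VCAM-1 or tenascin, form a group of their own. Itga4 had values of 1.61, 0.77, 1.30 and 1.63 with EXO-Post BSA and 0.95, 1.22 and 0.77 with EXO-Post Palm, and the groups overlapped. The difference of Itga4 was -0.35 ± 0.26 and that of Itga9 was -0.81 ± 0.31, with a limma adjusted p of 0.441 for Itga9.

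The lowest adjusted p of all members was that of a probe for Itgam, which encodes the alphaM chain of the myeloid receptor CD11b/CD18. The 3 Itgam probes disagreed. Probe A_55_P1977934 had values of 4.03, 3.24, 3.48 and 2.55 with EXO-Post BSA and 1.81, 1.43 and 1.85 with EXO-Post Palm, and the groups did not overlap. Its difference was -1.63 ± 0.34, with a limma adjusted p of 0.111 and an exact permutation p of 0.0571. It was -1.82 within slide 1 and -0.70 within slide 3. Probe A_55_P1977926 had values of -4.21, -3.97, -3.92 and -4.09 against -3.53, -3.47 and -4.67, and it was well above background on 4 and 2 arrays of the groups. Its groups overlapped, with a difference of 0.16 ± 0.31. Probe A_55_P1977929, at -4.21, -3.75, -3.59 and -4.48 against -4.10, -5.26 and -4.30, was well above background on 3 and 2 arrays and gave -0.55 ± 0.34. On mm9, A_55_P1977926 starts 48135 bases from A_55_P1977929, which starts 1480 bases from A_55_P1977934.

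The Itgam probe with the -1.63 difference is the member probe that holds the run of CA pairs. Other probes with such a run were looked up after the sequence of this probe was seen. Another 30 tested probes, for 30 other genes, hold an unbroken run of CA pairs of at least 16 bases. All 30 had a difference below 0, with a median of -1.23 and a range of -1.90 to -0.31. Of these, 27 had an unadjusted p under 0.05, and in 26 the groups did not overlap. None passed the adjusted threshold in limma. Relative to the EXO-Post BSA mean of each probe, the median of 29 of them with a value on every array was 0.34, -0.12, 0.06 and -0.31 with EXO-Post BSA and -1.49, -1.18 and -0.78 with EXO-Post Palm. The Itgam probe gave 0.71, -0.09, 0.15 and -0.78, and then -1.51, -1.89 and -1.48. Its order was that of these probes over the EXO-Post BSA arrays and differed over the EXO-Post Palm arrays, where replicate 2 was lowest for Itgam and replicate 1 for the others. The 69 tested probes with a run of TG pairs had a median difference of 0.52, with 2 below 0, and 21489 probes with neither run had a median of -0.02. These values come from probes of unrelated genes, and the part of the repeat in the Itgam difference was not tested.

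**Figure D2:**
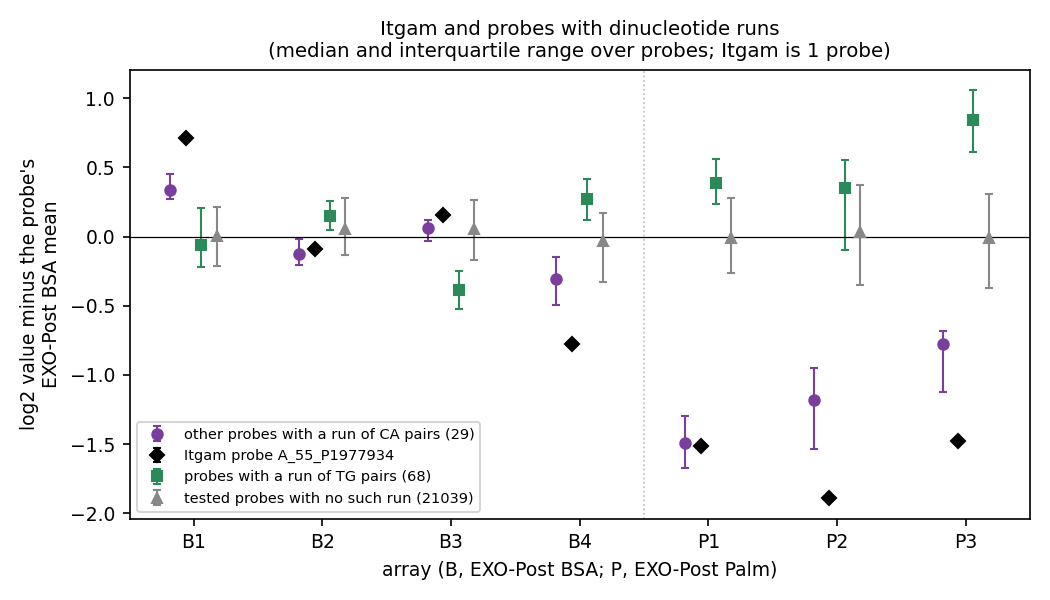
Log2 value on each array relative to the EXO-Post BSA mean of the same probe, as the median and interquartile range over 29 other probes with a run of CA pairs, 68 with a run of TG pairs and 21039 with neither, beside the single Itgam probe A_55_P1977934. The Itgam probe lies between -1.89 and -1.48 on the EXO-Post Palm arrays and the median of the other CA probes between -1.49 and -0.78, while probes with neither run stay near 0.

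None of the other leukocyte integrins or leukocyte markers tested was lower at an unadjusted p under 0.05. Itgal, the alphaL chain of LFA-1, had a difference of 0.31 ± 0.39, and Itgb2, the beta chain that pairs with alphaM and alphaL, one of -0.48 ± 0.67. Itgb2 was at -3.50, -3.32, -3.37 and -3.72 with EXO-Post BSA and at -3.25, -5.95 and -2.67 with EXO-Post Palm, so that replicate 2 set the sign. Without that array, the difference of Itgb2 was 0.52. Itgax, Itgad, Itgae and Itgb2l were not well above background on any array. Of 12 leukocyte markers, 4 (Csf1r, Cd14, Fcer1g and Cd3e) were well above background on all 7 arrays and 5 were tested, with a median difference of 0.45. Cd14, a receptor for bacterial lipopolysaccharide, had a difference of 1.05 ± 0.28 with groups that did not overlap (limma adjusted p = 0.219). It was the 1 marker that was higher at an unadjusted p under 0.05, and none of the 5 passed the threshold. The lowest difference was that of Cd3e, at -1.19 ± 0.78 (limma adjusted p = 0.656), or -0.22 without EXO-Post Palm replicate 3. Lyz2, Tyrobp and Laptm5 were not well above background on any array, and Ptprc, which encodes the leukocyte antigen CD45, on 1 array of each group. The summed level of the 12 was 2.61 to 4.04 with EXO-Post BSA and 3.19 to 5.10 with EXO-Post Palm.

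**Figure D3:**
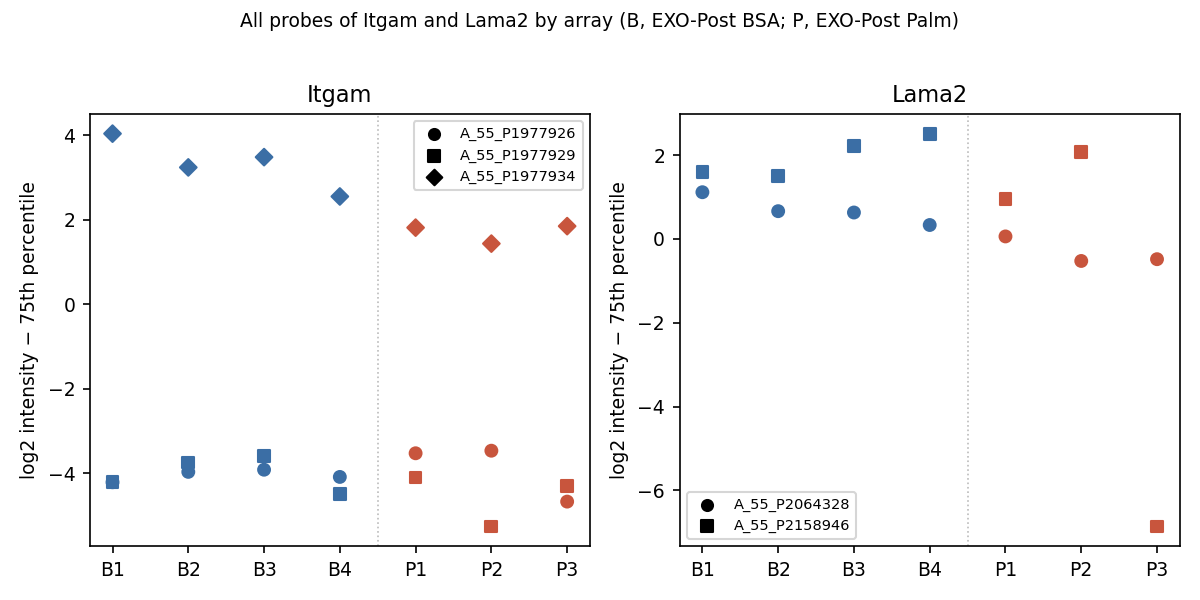
Log2 intensity relative to the 75th percentile for each probe of Itgam (left, 3 probes) and Lama2 (right, 2 probes) on each of the 7 arrays. Probe A_55_P1977934 of Itgam is at 2.55 or above with EXO-Post BSA and at 1.85 or below with EXO-Post Palm, while the other Itgam probes overlap, and probe A_55_P2158946 of Lama2 is at -6.86 on EXO-Post Palm replicate 3 alone.

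Among the beta chains, Itgb7 alone had an unadjusted p under 0.05, while 6 of the 8 tested probes had a difference below 0. Itgb7 encodes the beta7 chain, known from lymphocytes that home to the gut. Its values were -3.44, -3.54, -3.96 and -3.57 with EXO-Post BSA and -2.30, -3.40 and -1.61 with EXO-Post Palm. The groups did not overlap in these scaled values, although EXO-Post Palm replicate 2 was only just above the highest EXO-Post BSA array. The difference was 1.19 ± 0.39, with a limma adjusted p of 0.347 and an exact permutation p of 0.0286. Leaving out the second of the EXO-Post Palm arrays gave 1.67 with an adjusted p of 0.0430, while adjusted p values over all alternatives reached 0.913. From the median pixel intensity with normexp background and quantile normalisation the difference was 0.51. Before any scaling between arrays, the median pixel of the Itgb7 spot was 148.5 to 181 on the EXO-Post BSA arrays. It was 121 on EXO-Post Palm replicate 2, below all of them, and 401 and 262 on replicates 1 and 3. The separation of replicate 2 from the EXO-Post BSA arrays was thus not seen in the unscaled median pixel. Itgb5, a partner of alphav, had values of 4.25, 4.36, 4.42 and 4.30 with EXO-Post BSA and 4.26, 4.40 and 4.05 with EXO-Post Palm, with a 95% interval of the difference of -0.53 to 0.33. Itgb1, the common partner of the muscle alpha chains, had a difference of -0.55 ± 0.28 at its brighter probe and -0.12 ± 0.23 at the other, with overlapping groups for both. The differences of Itgb3, Itgb4 and Itgb6 were between -0.32 and 0.07, and Itgb8 was not well above background on enough arrays.

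The rule also took 4 genes that are named for a beta chain without encoding a subunit. Itgb1bp3, now Nmrk2, encodes a muscle kinase of NAD synthesis. Its values were 0.08, -0.19, -0.23 and 0.30 with EXO-Post BSA and -0.83, -0.24 and -0.74 with EXO-Post Palm. EXO-Post Palm replicate 2 lay next to the lowest EXO-Post BSA arrays, and the groups did not overlap. The difference was -0.59 ± 0.24, with a limma adjusted p of 0.461 and an exact permutation p of 0.0286. Itgb1bp2, or melusin, a chaperone of striated muscle that binds the beta1 tail, had values of 1.93, 2.38, 2.04 and 2.69 against 2.42, 2.89 and 2.32, which overlapped. The differences of Itgb1bp1 and Itgb3bp were 0.35 ± 0.22 and 0.38 ± 0.38.

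Of the laminin alpha chains, Lama2 was lower and Lama4 higher with EXO-Post Palm at an unadjusted p under 0.05, and neither passed the adjusted threshold. Lama2 encodes the alpha2 chain of the main laminin of adult muscle, and both of its probes are given, a choice made after their values were seen. Probe A_55_P2064328 had values of 1.11, 0.66, 0.63 and 0.33 with EXO-Post BSA and 0.06, -0.53 and -0.48 with EXO-Post Palm. The groups did not overlap, and the difference was -1.001 ± 0.26, with a limma adjusted p of 0.204 and an exact permutation p of 0.0286. It was -0.83 within slide 1, -0.82 within slide 3 and -0.66 from the median pixel intensity with normexp background and quantile normalisation. The other probe, 126 bases away on mm9, was the brighter and had values of 1.59, 1.49, 2.22 and 2.51 with EXO-Post BSA and 0.95, 2.07 and -6.86 with EXO-Post Palm. Its difference of -3.23 ± 1.81 rested on EXO-Post Palm replicate 3, and it was -0.44 without that array. On that array the processed signal of the spot was 4.73 and its median pixel 63.0 against a local background of 29.5, while on the other arrays the processed signal was 2544 to 4132. The spot carried no outlier flag.

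Such isolated low spots were most frequent on replicates 2 and 3 of EXO-Post Palm. Counting probes more than 4 below every other array on the log2 scale gave 56 on EXO-Post Palm replicate 2 and 32 on replicate 3, against 0, 0, 9 and 19 on the EXO-Post BSA arrays and 1 on replicate 1 of EXO-Post Palm. No probe was as far above.

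Lama4 encodes the alpha4 chain, found in embryonic muscle, vessels and nerve. Its values were -2.43, -1.75, -2.09 and -2.20 with EXO-Post BSA and -1.44, -1.25 and -1.50 with EXO-Post Palm, and the groups did not overlap. The difference was 0.72 ± 0.22, with a limma adjusted p of 0.312 and an exact permutation p of 0.0571. It was 0.64 within slide 1 and 0.70 within slide 3. Lama5, a chain of many basement membranes, had values of 3.36, 3.11, 2.65 and 3.19 against 2.76, 2.80 and 3.17. These overlapped, with a 95% interval of the difference of -0.71 to 0.37. The difference of Lama1, a chain of early embryonic laminin, was 0.45 ± 0.40, and that of Lama3, an epithelial chain, was -0.14 ± 0.26.

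Lamc1, the gamma1 chain shared by the muscle laminins, had values of 2.44, 2.23, 2.14 and 2.61 with EXO-Post BSA and 1.76, 2.06 and 1.85 with EXO-Post Palm. The groups did not overlap, and the difference was -0.47 ± 0.21 (limma adjusted p = 0.508, exact permutation p = 0.0571). It was -0.25 from the median pixel intensity with normexp background and quantile normalisation. Lamb2, a chain of the laminin at the neuromuscular junction, had values of 0.94, 0.70, 1.52 and 1.02 against 1.14, 1.41 and 1.44, and its groups overlapped. The difference of Lamb3, an epithelial chain, was -0.96 ± 0.41, with a limma adjusted p of 0.485, and it was -0.12 within slide 1 and -0.78 within slide 3. Lamc3 had a difference of 0.60 ± 0.57. Lamb1 stands under an older symbol that the rule did not take, and its difference was -0.19 ± 0.20.

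**Figure D4:**
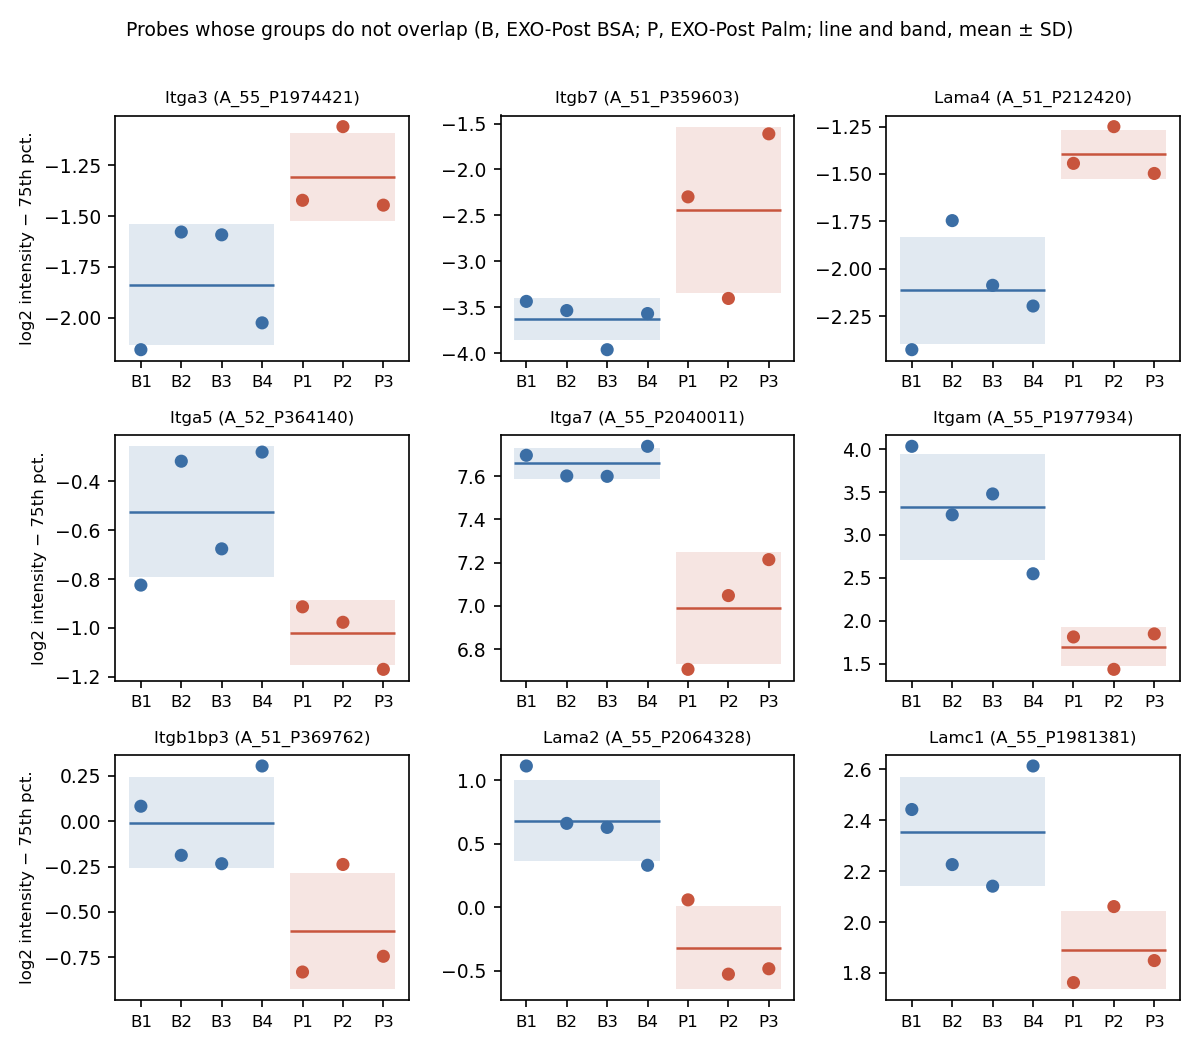
Log2 intensity relative to the 75th percentile on each array for the 9 probes whose groups do not overlap, with the mean as a line and the SD as a band (4 EXO-Post BSA arrays in blue, 3 EXO-Post Palm arrays in red). Itga3, Itgb7 and Lama4 lie higher with EXO-Post Palm, and Itga5, Itga7, Itgam, Itgb1bp3, Lama2 and Lamc1 lie lower, with vertical scales that differ between panels.

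Several differences changed in size under another treatment of the same spots, in which the pixel statistic, the background correction and the normalisation all differed. Of the 38 tested probes, 5 changed sign between the processed signal and the median pixel with normexp background and quantile normalisation. The median over the members was -0.23 with the first and -0.11 with the second.

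**Figure D5:**
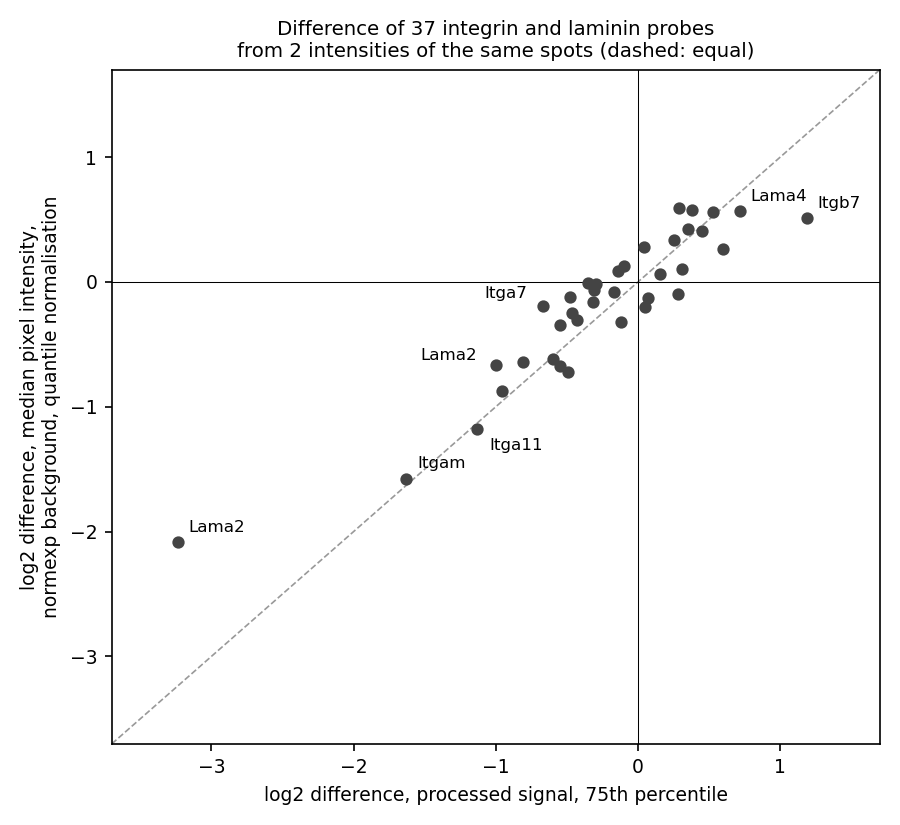
Log2 difference of 37 of the 38 tested probes from the processed signal (horizontal) and from the median pixel intensity with normexp background and quantile normalisation (vertical). The Itgam probe A_55_P1977934 (-1.63 and -1.57) and Itga11 (-1.13 and -1.18) lie near the line of equal values, whereas Itga7 moves from -0.67 to -0.19 and Itgb7 from 1.19 to 0.51.

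Genes around the integrins and laminins also had no call past the threshold. Of 37 activators and focal adhesion proteins, which link integrin tails to actin, 33 were tested, and 3 were lower and 0 higher at an unadjusted p under 0.05, beside 5.19 and 4.85% of all tested probes, shares that also stand beside the counts of the other lists. The lowest difference was that of the adaptor Git1, at -0.87 ± 0.26 (limma adjusted p = 0.296), and the highest that of Sharpin, which holds integrins inactive, at 0.54 ± 0.46, a value that was 0.07 without EXO-Post BSA replicate 4. Of 30 integrin ligands and basement membrane proteins, 26 were tested, and 9 were lower and 4 higher at an unadjusted p under 0.05, with a median difference of -0.38. The lowest was Col1a1, a chain of type I collagen, with values of 5.10, 4.61, 4.67 and 4.70 with EXO-Post BSA and 3.64, 2.44 and 3.32 with EXO-Post Palm. Its difference was -1.64 ± 0.31 with a limma adjusted p of 0.0701. The highest was Tgfbi, a TGF-beta induced matrix protein, at 1.86 ± 0.35 with a limma adjusted p of 0.0702. Its values were -4.09, -4.62, -3.63 and -4.28 with EXO-Post BSA and -2.33, -2.92 and -1.64 with EXO-Post Palm. It was dim with EXO-Post BSA, being well above background on 3 of those arrays. Of 17 laminin receptors other than integrins, all 17 were tested, and 1 was lower at an unadjusted p under 0.05. That was Pomt2, a transferase that glycosylates dystroglycan, with a difference of -0.58 ± 0.18 (limma adjusted p = 0.323), and the highest was the syndecan Sdc1, at 0.48 ± 0.25, or 0.22 without replicate 2 of EXO-Post Palm.

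Markers of other cell types were also examined. None of 5 platelet markers was tested, since none was well above background on enough arrays. Their summed level, from signals mostly near or below background, was 0.0301 to 0.107 with EXO-Post BSA and 0.118 to 0.169 with EXO-Post Palm. These sums did not overlap, but the markers did not move together. With EXO-Post BSA and then EXO-Post Palm, Ppbp averaged -6.46 and -3.92, and Pf4 -7.14 and -5.43. Gp1ba averaged -6.37 and -6.17, Gp9 -5.45 and -6.09, and Gp6 -6.26 and -6.34. Ppbp was well above background on 2 EXO-Post Palm arrays and on 0 of EXO-Post BSA. Tested were 3 of 7 endothelial and 3 of 6 epithelial markers, with no unadjusted p under 0.05. Their summed levels were 4.29 to 5.49 and 0.294 to 0.606 with EXO-Post BSA, and 3.13 to 6.51 and 0.315 to 0.440 with EXO-Post Palm, for endothelial and epithelial markers in that order. Among 16 muscle markers, 3 were lower and 1 higher at an unadjusted p under 0.05, from Chrna1 at -0.89 ± 0.34, or -0.52 without replicate 3 of EXO-Post Palm, to Des at 0.50 ± 0.20, and none passed the threshold.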

How the data were processed

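Arrays of 4 EXO-Post BSA and 3 EXO-Post Palm cultures were analysed. Per the file headers, each array file holds scanner output, and the deposited processed intensity is background-subtracted and detrended, not normalised between arrays. The authors' table of log2 values, joined by row order (rank correlation with the median pixel of at least 0.994), served as an alternative. The submitters' notes name Agilent Feature Extraction 9.1 and limma. Replicate 3 of EXO-Post BSA was read out with later software.

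Log2 processed intensity minus the 75th percentile of 43020 non-control spots was used. Outlier spots, none of a member, were left out, and no spot was saturated. Probes well above background on at least 3 arrays of 1 group (21589) were fitted on condition with limma 3.58.1 in R 4.3.3 (with jsonlite 2.0.0 and the package data.table, version 1.17.8), with Benjamini-Hochberg adjustment over all of them and a threshold of 0.05. Alternatives changed the background correction (normexp with an offset of 50), normalisation, probe filter, slide or replicate block, moderation and test, or left out an array. Exact permutation tests used all 35 splits. A gene is given by its brightest tested probe, and Itgam by all its probes. All tested probes of Itga10, Itgav, Itgb1 and Lama2 are given as well, outside that rule. Values of every array are given for genes whose groups do not overlap, the brightest gene of each role and Itgam. The values of 1 tested member are not reported here, though it is counted. Members and lists were chosen with earlier results of these data known. In simulated data for this comparison with 21137 probes, 11 of 100 changed by 1 and 68 of 100 changed by 2 (log2) were recovered. Of 41 genes, 39 were found by accession among RefSeq genes (GRCm38.p6), and 1 of them had a newer symbol. Same-numbered arrays of the groups correlated at 0.12, -0.15 and -0.15 in their deviations, so replicate numbers were not used as pairs.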

Additional observations from a re-analysis of the deposited data

Results flagged for a closer look

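In the 4 EXO-Post BSA arrays, the values of 2 of 38 tested probes had a sample set far apart from the other arrays. Chance gives about 5% of groups such a value. Itgal stood at -5.02 on EXO-Post BSA replicate 4 and between -3.67 and -3.55 on the other EXO-Post BSA arrays. Lamc3, the gamma3 chain, stood at -5.87 on the same array and between -3.71 and -3.31 on the others. Both probes were well above background on 3 of the 4 arrays. The groups of 3 EXO-Post Palm arrays were not examined in this way.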

How the results depend on the processing

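There were 18 alternatives, 7 of which left out an array. Over them, 639 of 678 differences of single probes kept their direction and their side of the threshold, 5 passed it and 34 changed sign, all of the latter below the threshold. The count of integrin and laminin probes called was 0 except for 1, Itgam A_55_P1977934, with normexp background and quantile normalisation (adjusted p = 0.0454), with probes well above background on all 7 arrays (0.0447), with trended and robust moderation (0.0394) and without EXO-Post BSA replicate 4 (0.0474), and for 1, Itgb7, without EXO-Post Palm replicate 2 (0.0430). Over all alternatives the limma adjusted p of that Itgam probe reached 0.405. Leaving out each array in turn gave 0 to 1 member calls and 0 to 202 calls over all probes, with 0 (1583 at an unadjusted p under 0.05) without EXO-Post BSA replicate 1, 44 without replicate 2, 21 without replicate 3 and 68 without replicate 4, and 7, 202 and 27 without EXO-Post Palm replicates 1, 2 and 3. Calls over all probes, 115 in limma, were 181 with slide as a random block and 173 with trended and robust moderation. They were 0 without a probe filter (1900 at an unadjusted p under 0.05) and 0 with Student's t-test (2107). The replicate block gave 0 calls over all probes (1933 at an unadjusted p under 0.05) and 0 over the members, and the pairing check gave no sign that the numbers pair the arrays. The members' median, -0.23, was -0.11 with normexp background and quantile normalisation, -0.12 with the authors' processed values, -0.14 without a probe filter and -0.27 to -0.11 with an array left out, lowest in size without EXO-Post Palm replicate 2. The cause of these changes was not tested.

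Signs changed for 13 probes, none of them past the threshold. With normexp background the values were Itga10 A_55_P2111533 -0.20, Itgb1bp2 -0.10, Itgb3 -0.13, Itgb5 0.13 and Lama3 0.085. With the authors' values they were Itga10 A_55_P2111533 -0.15, Itgb1bp2 -0.10, Itgb3 -0.15, Itgb4 0.00097, Itgb5 0.13 and Lama3 0.083. Median centring gave -0.019 and -0.013 for the Itga10 probes A_55_P2097913 and A_55_P2111533. Slide as a block gave -0.074 for Itga10 A_55_P2097913, 0.010 for Itgam A_55_P1977929, -0.23 for Itgav A_55_P2039771, -0.0035 for Itgb1bp2, 0.54 for Itgb2, -0.077 for Itgb3 and 0.15 for Lama3. The replicate block gave -0.050 for Itgal. With an array left out, the ranges that crossed 0 were -0.020 to 0.13 for Itga10 A_55_P2097913, -0.15 to 0.25 for Itga10 A_55_P2111533, -0.083 to 0.28 for Itgb3, -0.050 to 0.49 for Itgal, -0.053 to 0.55 for Itgam A_55_P1977926, -0.27 to 0.033 for Itgb1 A_52_P351816, -0.0044 to 0.45 for Itgav A_55_P2039771, -1.12 to 0.52 for Itgb2 and -0.27 to 0.011 for Lama3.

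The arrays are few, and in simulated data most changes of 1 on the log2 scale were missed, so a difference without a call is not shown to be absent. Probes not well above background have no measured difference. The 2 slides that held both groups held 1 EXO-Post Palm array each.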
